A study of Saccharomyces cerevisiae with 21 samples.

Results

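The ribosome biogenesis genes described here are 59 protein-coding genes of *Saccharomyces cerevisiae*, chosen by a fixed list of ORF identifiers of nucleolar rRNA processing and ribosome assembly factors (the *NOP*, *UTP*, *NOC*, *DBP* and *RRP* genes and their relatives). They make up 59 of 6007 protein-coding genes and of 7126 annotated features in the count table. All 59 matched the annotation and all 59 passed the filter on low counts, together with 5742 protein-coding genes in all. The study measured nascent RNA, that is RNA fragments recovered with RNA polymerase II through the FLAG-tagged subunit Rpb3, to ask how the chromatin remodeller RSC and the transcription factor Rap1 shape transcription. Sth1 is the ATPase of RSC, and Rap1 is a general regulatory factor best known for its sites in ribosomal protein gene promoters.

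In all, 7 conditions of 3 biological replicates each gave 21 libraries. Sth1-depleted cells were *STH1-AID* + IAA, set against *STH1-AID* + DMSO control cells. Rap1-depleted cells were *RAP1-AID* + IAA, set against *RAP1-AID* + DMSO. Co-depleted cells were *RAP1-AID*/*STH1-AID* + IAA, set against *RAP1-AID*/*STH1-AID* + DMSO. The last condition was an untreated wild type (WT). Every strain was labelled as a haploid MATa derivative of BY4741 with his3D1, leu2D0, met15D0, ura3D0 and RPB3-3xFLAG. The degron strains also carried osTIR, the plant auxin receptor, under the constitutive pGPD1 promoter, and STH1-3V5-IAA7, RAP1-3V5-IAA7 or both. Auxin (IAA, 500 µM) or an equal volume of its solvent DMSO was added to exponentially growing cultures in YPD. WT carried neither osTIR nor a degron tag and received no DMSO, so a DMSO control against WT compares tag, osTIR and DMSO together. Each genotype was represented by 1 strain.

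Yeast ribosomes are assembled on a long precursor rRNA made by RNA polymerase I in the nucleolus. C/D and H/ACA box snoRNPs modify that precursor, the small subunit (SSU) processome with its UTP-A, UTP-B and Mpp10 modules folds and cuts the 18S part, and GTPases, RNA helicases and scaffold proteins mature the 60S particle. The protein factors are encoded by genes transcribed by RNA polymerase II that are known to respond together to nutrients and growth, largely through promoter sequences called PAC and RRPE, bound by the repressors Dot6 and Tod6 (PAC) and by Stb3 (RRPE).

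Promoter sequence was a feature that the list did not use. In windows from 250 bases before to 50 bases after the first base of the start codon, the PAC core (GATGAG, either strand) was present in 56 of 59 promoters of the set (94.9%), compared with 1221 of 5987 protein-coding promoters of the same length (20.4%). The RRPE core (AAAATTTT, which reads alike on both strands) was present in 51 of 59 (86.4%), compared with 9.0% of all promoters, and both cores together in 83.1%, compared with 4.4%. Only *UTP22*, encoding an SSU processome protein, had neither. The only PAC match of *UTP4* began 5 bases after the first base of the start codon, within the coding sequence. *UTP4* is counted here with PAC and with both cores. The 137 cytosolic ribosomal protein genes held PAC in 10.9% and RRPE in 6.6% of their promoters. These matches are descriptions of letters in a window, not measured sites.

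In all, 6 promoters are shown because the genes stand at the ends of the comparisons described below or because the gene is the fixed example of its group. They are *NSR1* (YGR159C) at chrVII:807607-807906 (minus strand), *TSR1* (YDL060W) at chrIV:341369-341668 (plus), *DBP10* (YDL031W) at chrIV:393967-394266 (plus), *UTP10* (YJL109C) at chrX:217260-217559 (minus), *NUG1* (YER006W) at chrV:162473-162772 (plus) and *NOP1* (YDL014W) at chrIV:427114-427413 (plus), read from RefSeq's R64 genome, the build used for the counts. Each is written 5′ to 3′ on the gene's own strand, and capitals mark PAC (GATGAG or its complement CTCATC), RRPE (AAAATTTT) and, in *NUG1*, a match to the Abf1 consensus. PAC matches can overlap each other, as in *TSR1* and *NUG1*.
NSR1: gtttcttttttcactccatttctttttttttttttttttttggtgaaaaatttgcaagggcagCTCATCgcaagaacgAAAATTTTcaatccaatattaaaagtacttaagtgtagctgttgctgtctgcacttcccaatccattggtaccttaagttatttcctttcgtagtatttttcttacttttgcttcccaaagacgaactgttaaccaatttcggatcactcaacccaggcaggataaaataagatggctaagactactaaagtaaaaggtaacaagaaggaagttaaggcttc
TSR1: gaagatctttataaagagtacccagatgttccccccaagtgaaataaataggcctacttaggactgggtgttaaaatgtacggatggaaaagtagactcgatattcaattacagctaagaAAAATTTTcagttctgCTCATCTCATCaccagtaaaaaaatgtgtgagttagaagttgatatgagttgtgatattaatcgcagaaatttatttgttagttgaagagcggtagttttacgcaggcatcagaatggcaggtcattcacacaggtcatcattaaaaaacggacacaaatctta
DBP10: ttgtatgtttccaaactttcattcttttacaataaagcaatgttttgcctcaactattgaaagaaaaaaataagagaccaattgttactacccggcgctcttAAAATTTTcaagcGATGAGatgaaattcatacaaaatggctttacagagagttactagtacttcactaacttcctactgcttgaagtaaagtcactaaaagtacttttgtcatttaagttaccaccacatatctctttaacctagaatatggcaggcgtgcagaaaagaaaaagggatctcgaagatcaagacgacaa
UTP10: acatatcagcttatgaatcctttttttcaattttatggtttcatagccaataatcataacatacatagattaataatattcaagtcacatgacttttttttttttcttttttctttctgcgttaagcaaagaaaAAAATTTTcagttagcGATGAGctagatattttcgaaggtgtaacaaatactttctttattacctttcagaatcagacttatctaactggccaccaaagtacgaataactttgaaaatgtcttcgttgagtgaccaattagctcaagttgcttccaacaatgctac
NUG1: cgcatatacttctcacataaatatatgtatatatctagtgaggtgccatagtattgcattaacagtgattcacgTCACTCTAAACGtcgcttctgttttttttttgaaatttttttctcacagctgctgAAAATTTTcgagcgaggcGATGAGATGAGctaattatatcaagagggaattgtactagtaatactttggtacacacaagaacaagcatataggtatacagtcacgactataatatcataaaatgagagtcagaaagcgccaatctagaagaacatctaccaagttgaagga
NOP1: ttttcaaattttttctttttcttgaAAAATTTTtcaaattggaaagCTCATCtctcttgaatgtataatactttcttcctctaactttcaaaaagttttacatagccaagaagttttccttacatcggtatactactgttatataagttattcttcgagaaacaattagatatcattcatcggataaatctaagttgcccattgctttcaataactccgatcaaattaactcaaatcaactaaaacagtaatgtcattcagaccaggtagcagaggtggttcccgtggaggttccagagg
In all 6 promoters the RRPE and PAC cores lay close together upstream of the start codon, RRPE first in 5 of them and PAC first in *NSR1*. *DBP10* and *NUG1*, which had opposite responses to Sth1 depletion, both had RRPE before PAC. Both cores were present in 83.1% of the set, so likeness between chosen genes tells nothing about their responses.

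Over all 59 promoters, the 88 PAC matches had a median position of -119 (interquartile range -143 to -100), counted in bases from the first base of the start codon, and the 63 RRPE matches a median of -139 (-172 to -122). Matches to the Abf1 consensus were present in 20 promoters (33.9%, against 14.4% of all promoters), with a median position of -181, and matches to the Reb1 core CGGGTAA in 11 (18.6%, against 7.1%). Abf1 and Reb1 are, like Rap1, general regulatory factors. The Rap1 consensus was found in none of the 59 windows, compared with 1.0% of all promoters and 4.4% of ribosomal protein gene promoters, and the Tbf1 core in none, compared with 0.7% of all. The Rap1 search matched only 6 of 137 ribosomal protein gene promoters, where Rap1 is best known to have sites. A missing match therefore does not show that a promoter lacks a Rap1 site. The *TSR1* promoter shown above holds a near match to the Rap1 consensus on the reverse strand, upstream of its RRPE core. It is not marked there, because near matches were not counted in any promoter. Whether Rap1 binds this stretch was not tested. For the letters linked to RSC, CGCG or CGGG occurred in 57.6% of the set and 56.4% of all promoters, and a run of AAAAAAA in 69.5% and 49.9%. All motifs were searched on both strands, and matches to different motifs were allowed to overlap.

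**Figure D1:**
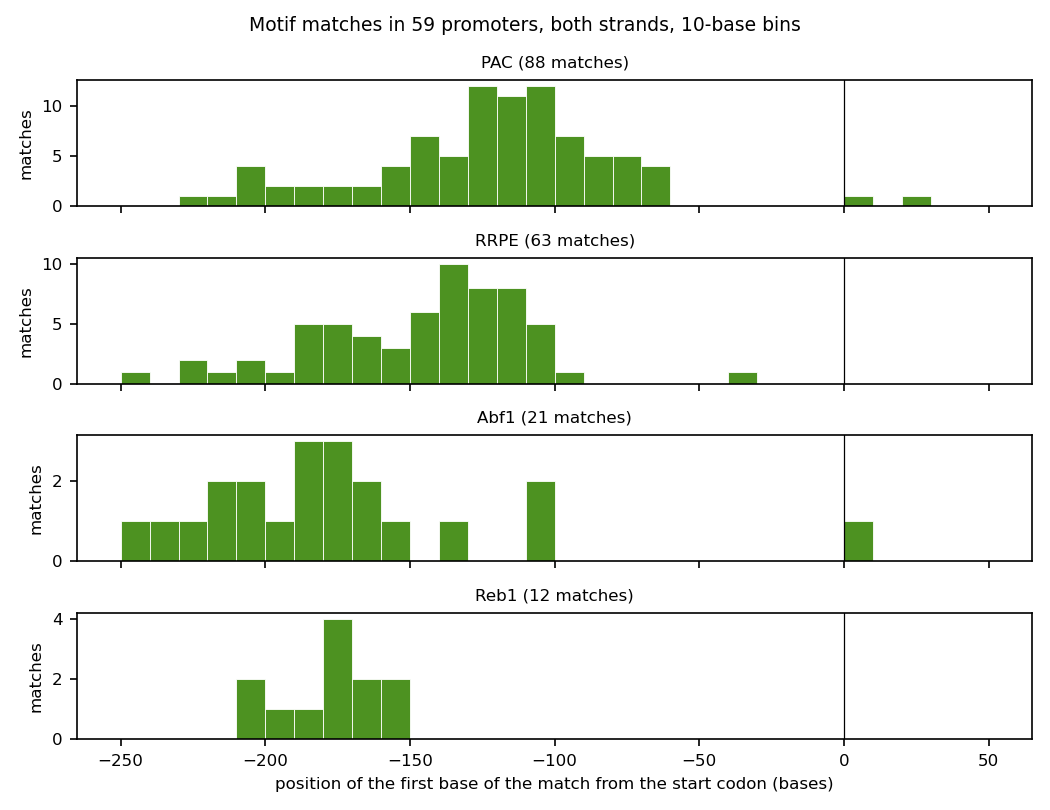
Positions of motif matches in the 59 promoters, as the number of matches (y axis) by distance of the first base of the match from the start codon in bases (x axis, 10-base bins). PAC and RRPE matches gather around their medians of -119 and -139, and the 21 Abf1 and 12 Reb1 matches lie further upstream around -181 and -177.

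The libraries held 18289832 to 23182315 counts (median 20675890), of which the 59 genes took 2.35 to 3.22%. The most abundant feature of each library was the spliceosomal RNA snR19, at 2.36 to 6.00% of counts. Labels were checked before any comparison. *MET17*, the gene deleted in met15D0 strains, had 0 to 2 counts in the 6 *STH1-AID* libraries but 593 to 1228 in the other 15, which goes against the genotype printed for the other strains. Comparisons of *STH1-AID* with another strain therefore include a difference at *MET17*, which cannot be told apart from the degron tag, while IAA against DMSO within a strain does not. Of the MATa markers, *STE2*, *STE6* and *BAR1* averaged 171 to 621 CPM (counts scaled to library size by TMM) in every condition, *MFA2* 1.66 to 11.4 CPM and *MFA1* 0.145 to 0.783 CPM. Of the MATalpha markers, *STE3* averaged 0.0933 to 8.04 CPM and *SAG1* 30.6 to 161 CPM. *STH1* RNA averaged 2272 ± 172 CPM in Sth1-depleted cells and 1153 ± 63.1 CPM in their controls (SD, n = 3 each), and *RAP1* RNA 705 ± 90 CPM with IAA and 599 ± 52.8 CPM with DMSO in *RAP1-AID* cells. The degron removes protein, so the RNA of the tagged genes does not report on depletion.

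In WT, all 59 genes lay above the median of protein-coding genes per length. Their median was 221 TPM (expression scaled for gene length and library size), against 58.7 TPM for all protein-coding genes tested, with quartiles of 153 and 278 TPM. The highest was *NSR1*, encoding a nucleolin-like protein of 18S rRNA processing, at 1085 TPM. It was followed by *NOP1*, the methyltransferase of C/D snoRNPs, at 587 TPM, *NOG1* (YPL093W), a GTPase of the pre-60S particle, at 517 TPM, and *CBF5* (YLR175W), the pseudouridine synthase of H/ACA snoRNPs, at 494 TPM. The lowest were *UTP22* at 78.8 TPM and *NIP7*, a 60S assembly factor, at 80.0 TPM. The short gene *NOP10* had few reads, 2.70 to 4.13 CPM in WT.

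As a whole the set was lower in Rap1-depleted cells and slightly higher in Sth1-depleted and co-depleted cells than in their controls. The median of the 59 genes, as log2 level over the WT mean, was -0.44 ± 0.03 in Rap1-depleted cells and -0.11 ± 0.05 in their controls. It was -0.04 ± 0.07 in Sth1-depleted cells against -0.21 ± 0.10 in *STH1-AID* controls, and 0.18 ± 0.06 in co-depleted cells against 0.02 ± 0.07 in the double degron controls (SD, n = 3 libraries each). These per-library medians of depleted and control cells were separate within every strain. For the ribosomal protein genes the median was -1.53 ± 0.18 in Rap1-depleted cells and -0.90 ± 0.07 in co-depleted cells, which is lower than the biogenesis set in both conditions.

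**Figure D2:**
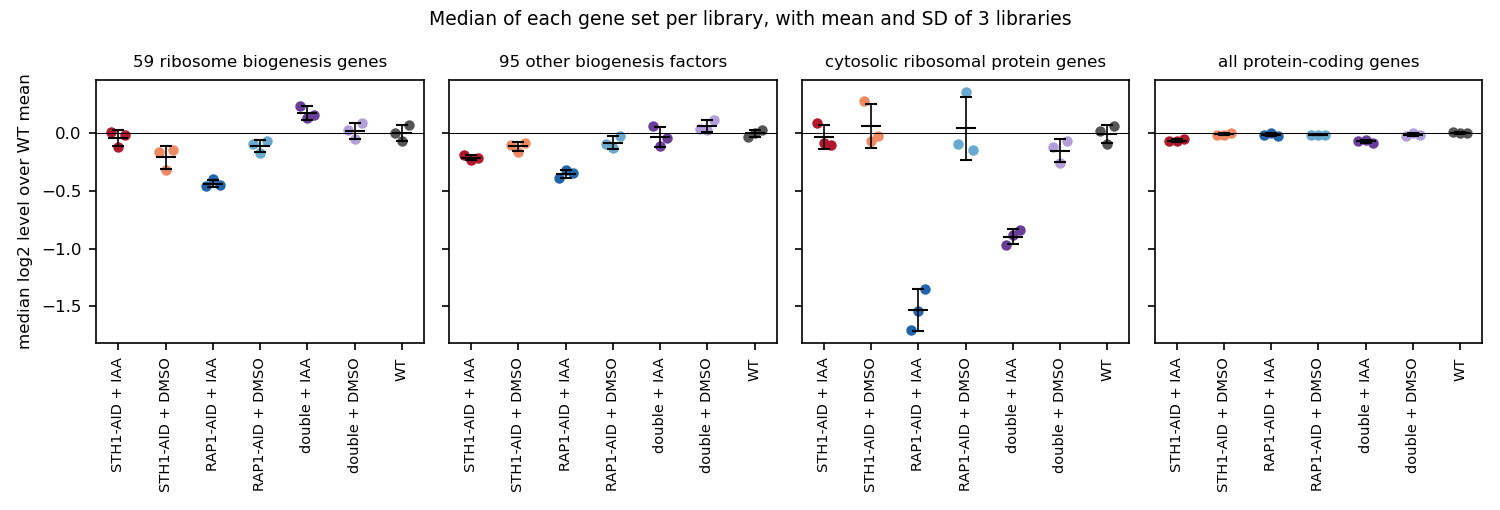
Median log2 level over the WT mean (y axis) in each of the 21 libraries by condition (x axis; double, *RAP1-AID*/*STH1-AID*) for the 59 ribosome biogenesis genes, 95 other biogenesis factors, 137 ribosomal protein genes and all protein-coding genes. Points are libraries and bars the mean and SD of 3; the 59 genes averaged -0.44 in Rap1-depleted cells and 0.18 in co-depleted cells.

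These values are relative, because the libraries carry no external standard and were scaled by TMM, which sets most genes to no change. When counts were scaled to total library size alone, the median of all protein-coding genes was -0.31 in Sth1 depletion, 0.13 in Rap1 depletion and -0.26 in co-depletion, against -0.06, 0.01 and -0.05 with TMM. The distance of the set's median from that of all genes was 0.28, -0.27 and 0.26 with total library size and 0.29, -0.27 and 0.26 with TMM. A change of scaling shifts all genes of a comparison by nearly the same amount. This distance could therefore hardly move, and it is no check on the result. In what follows, "rose" and "fell" mean a call at an adjusted p below 0.05 (edgeR quasi-likelihood test, Benjamini-Hochberg over 5742 protein-coding genes) on the TMM scale. With Sth1 depletion 35.9% of all genes rose and 40.9% fell, and with co-depletion 32.2% and 37.5%. Most genes were thus called as changed in these comparisons, against the assumption of TMM. In bulk libraries, fewer cells transcribing a gene and less nascent RNA per cell cannot be told apart.

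On the TMM scale, Sth1 depletion raised a larger share of the 59 genes than of all genes and lowered a smaller one. Of the 59 genes, 28 rose (47.5%), compared with 35.9% of all protein-coding genes, and 11 fell (18.6%), compared with 40.9%, while 20 did not pass. The median log2(FC) was 0.23, against -0.06 for all genes tested, and the range was -2.03 to 0.80. Past a log2(FC) of 1 in size, 0 rose and 3 fell, compared with 10.5% and 15.9% of all genes. Under total library size the split was 8 higher and 20 lower, compared with 24.4% and 50.0% of all genes. The larger share that rose was thus not seen there, and the direction of small changes depended on the scaling.

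The strongest fall was in *DBP10*, encoding a DEAD-box RNA helicase of the 60S pathway. It had 147, 129 and 144 CPM in Sth1-depleted cells, against 616, 511 and 585 CPM in control cells. Every depleted library lay below every control library, and the log2(FC) was -2.03 ± 0.09 (SE, adjusted p = 2.29e-13 by edgeR). *MAK5* (YBR142W), another 60S helicase, had 131, 126 and 139 CPM in Sth1-depleted cells, against 307, 279 and 312 CPM in controls. Its libraries did not overlap either (log2(FC) -1.19 ± 0.09, adjusted p = 5.65e-10 by edgeR). *UTP10*, a large UTP-A subunit of the SSU processome, had 373, 378 and 334 CPM in Sth1-depleted cells, against 685, 741 and 959 CPM in controls, and control replicate 3 was the highest. The groups stayed apart, with a log2(FC) of -1.14 ± 0.12 (adjusted p = 4.65e-08 by edgeR).

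The highest gain was in *NUG1*, a GTPase needed for export of the 60S subunit. It had 704, 627 and 713 CPM in Sth1-depleted cells, against 406, 364 and 401 CPM in controls (log2(FC) 0.80 ± 0.10, adjusted p = 8.53e-07 by edgeR), with no overlap. *HAS1* (YMR290C), a DEAD-box helicase that acts in both subunits' pathways, had 554, 493 and 568 CPM in Sth1-depleted cells, against 348, 309 and 337 CPM in controls (0.70 ± 0.13, adjusted p = 4.81e-05 by edgeR). *RRP9* (YPR137W), a protein of the U3 snoRNP, had 681, 695 and 783 CPM in Sth1-depleted cells, against 443, 446 and 446 CPM in controls (0.69 ± 0.09, adjusted p = 8.62e-07 by edgeR). For *HAS1* and *RRP9*, too, all depleted libraries were above all control libraries, and the 3 calls held in each of the 6 fits that left out 1 library.

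By role, all 4 C/D snoRNP genes rose (*NOP1*, *SNU13*, *NOP56*, *NOP58*; median 0.40), as did 3 of 4 H/ACA genes (*NHP2*, *NOP10*, *CBF5*; median 0.50), with *GAR1* at 0.12. Under total library size these medians were 0.15 and 0.25, with 3 of 4 genes positive in each group and 1 and 2 called. Among 7 GTPases and other 60S factors, 6 rose, none fell and *NIP7* had 0.14 (median 0.35; under total library size 0.10, with 1 called). Among 6 60S helicases, 3 fell (*DBP10*, *MAK5* and *SPB4*, the last at -0.85) and 1 rose (*HAS1*), with a median of -0.49. The UTP-A complex had 4 that rose and 2 that fell (*UTP10* and *UTP4*), the UTP-B complex 2 that rose and none that fell, and the Mpp10 complex 1 of each: *MPP10* at 0.41 and its partner *IMP3* at -0.75. Of 16 other SSU and 40S factors, 4 rose (*NSR1*, *RRP9*, *TSR1*, *SOF1*) and 4 fell (*UTP7*, *UTP23*, *RRP12*, *BMS1*), with a median of -0.05. The medians of the UTP-A, UTP-B, Mpp10 and 60S scaffold groups, 0.19, 0.24, 0.09 and 0.21, turned to -0.06, -0.01, -0.16 and -0.04 under total library size. Among 6 60S scaffold genes, 3 rose (*NOP7*, *ERB1*, *YTM1*) and 1 fell (*NOC3*). No test compared the role groups with each other.

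**Figure D3:**
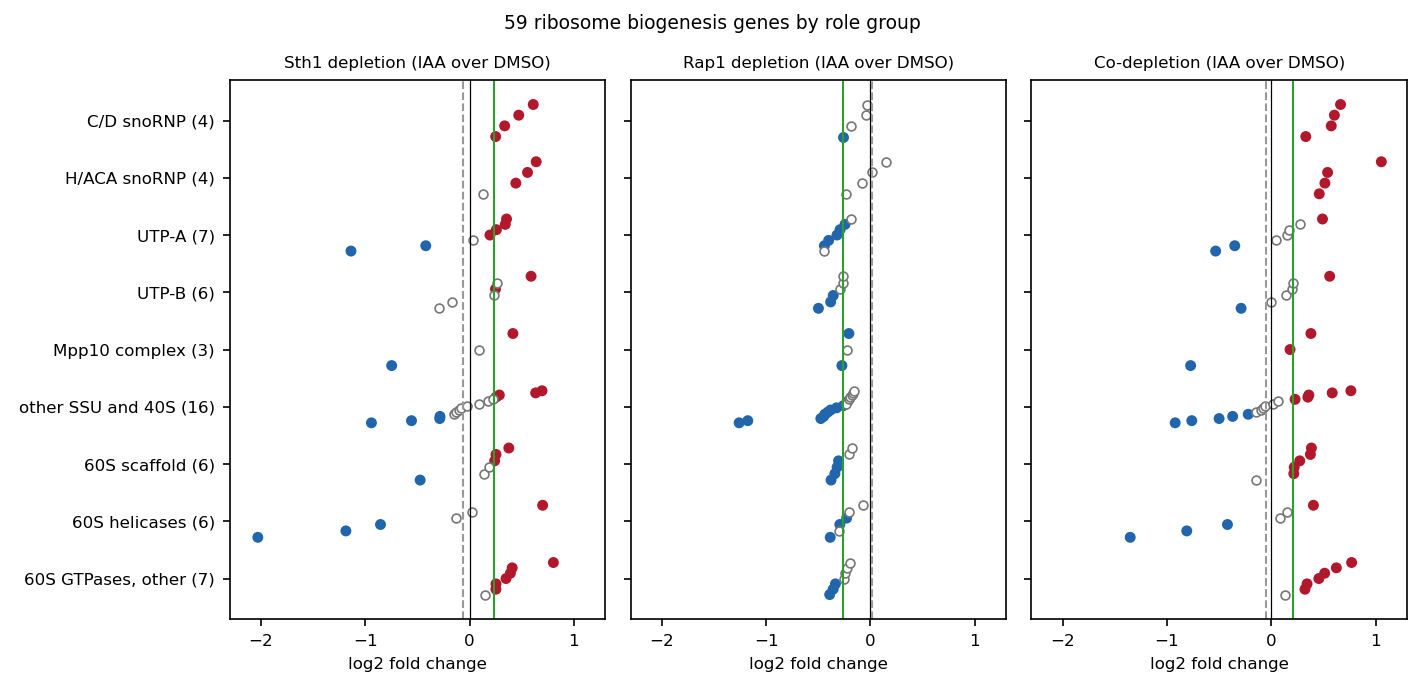
log2 fold change of IAA over DMSO (x axis) of the 59 genes by role group (y axis, number of genes in brackets) in the 3 depletions. Red points rose and blue points fell at adjusted p below 0.05, open points did not pass, the green line is the median of the 59 genes (0.23, -0.26 and 0.21) and the dashed line that of all protein-coding genes; in Rap1 depletion the genes form a narrow band left of 0, apart from *NSR1* and *TSR1*.

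The fixed examples of the remaining groups changed less. *NOP1* had 682, 617 and 681 CPM in Sth1-depleted cells, against 487, 404 and 406 CPM in controls (log2(FC) 0.61 ± 0.12, adjusted p = 0.000113 by edgeR). *CBF5* had 957, 887 and 971 CPM in Sth1-depleted cells, against 730, 639 and 701 CPM in controls (0.44 ± 0.08, adjusted p = 8.49e-05 by edgeR). Both stood clear of their controls. *NOG1* had 1400, 1264 and 1451 CPM in Sth1-depleted cells, against 1119, 962 and 1059 CPM in controls (0.39 ± 0.10). *MPP10* (YJR002W), the scaffold of its complex, had 454, 378 and 466 CPM in Sth1-depleted cells, against 330, 299 and 345 CPM in controls (0.41 ± 0.09). *NOP7* (YGR103W), of the Nop7-Erb1-Ytm1 complex of the pre-60S particle, had 675, 619 and 646 CPM in Sth1-depleted cells, against 561, 512 and 571 CPM in controls (0.24 ± 0.10, adjusted p = 0.0301 by edgeR). The *NOG1* and *MPP10* calls were lost under total library size. The *NOP7* call turned to -0.01 under total library size and held in 3 of the 6 fits with 1 library left out.

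*BMS1* (YPL217C), a GTPase of the SSU processome, fell, with 580, 536 and 630 CPM in Sth1-depleted cells, against 759, 633 and 736 CPM in controls (-0.29 ± 0.12, adjusted p = 0.0309 by edgeR). The call held in 2 of 6 fits with 1 library left out. *PWP2* (YCR057C), of UTP-B, had 967, 822 and 1055 CPM in Sth1-depleted cells, against 848, 705 and 824 CPM in controls, which overlapped and did not pass (0.26 ± 0.12, adjusted p = 0.0511 by edgeR). *UTP6* (YDR449C), also of UTP-B, had 108, 108 and 90.6 CPM in Sth1-depleted cells, against 99.5, 126 and 150 CPM in controls, and likewise did not pass (adjusted p = 0.0665 by edgeR).

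The 2 genes that stand apart in Rap1 depletion rose here. *NSR1* had 1787, 1451 and 1679 CPM in Sth1-depleted cells, against 1178, 965 and 1028 CPM in controls (0.63 ± 0.12, adjusted p = 7.49e-05 by edgeR). *TSR1* had 636, 569 and 670 CPM in Sth1-depleted cells, against 530, 480 and 529 CPM in controls (0.28 ± 0.09, adjusted p = 0.00715 by edgeR). Both were free of overlap, but the *TSR1* call was lost under total library size.

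Rap1 depletion lowered the set broadly but mildly. Of the 59 genes, 31 fell (52.5%), compared with 13.3% of all protein-coding genes, and 0 rose, compared with 12.8%. The median log2(FC) was -0.26, against 0.01 for all genes tested, and 57 of 59 values were negative. In 44 genes every Rap1-depleted library lay below every control library, compared with 20.4% of all genes, and in none did every one lie above, compared with 21.8%. Past a log2(FC) of 1 in size, 2 genes fell and 0 rose, compared with 3.19% and 1.57% of all genes. Under total library size 9 fell, compared with 6.98% of all genes, and 0 rose, compared with 22.6%. Without *RAP1-AID* + DMSO replicate 1, *RAP1-AID* + DMSO replicate 3 or *RAP1-AID* + IAA replicate 1 the number that fell was 18, 15 or 20. The shares of all genes in these fits are not given.

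Past a log2(FC) of 1 in size were *NSR1* and *TSR1*, both of the 40S pathway, which stood far from the other 57. *NSR1* had 523, 675 and 556 CPM in Rap1-depleted cells, against 1431, 1331 and 1435 CPM in controls (log2(FC) -1.26 ± 0.12, adjusted p = 8.72e-08 by edgeR). *TSR1*, encoding a GTPase-like factor of late 40S assembly, had 270, 241 and 267 CPM in Rap1-depleted cells, against 628, 517 and 614 CPM in controls (-1.18 ± 0.09, adjusted p = 3.97e-09 by edgeR). In both genes the groups were far apart, and the calls held under every alternative run. The next lowest was *UTP6*, with 81.5, 89.5 and 68.0 CPM in Rap1-depleted cells, against 103, 111 and 124 CPM in controls (-0.50 ± 0.14, adjusted p = 0.0137 by edgeR). Its libraries did not overlap, but the call was lost under total library size and in 2 of 6 fits with 1 library left out.

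At the other end, *NOP10*, *CBF5* and *NOP1* had the values nearest to or above 0. *NOP10* (YHR072W-A), a small H/ACA protein, had 4.34, 5.21 and 4.36 CPM in Rap1-depleted cells, against 3.06, 4.02 and 5.46 CPM in controls (0.15 ± 0.21, adjusted p = 0.624 by edgeR). *CBF5* had 700, 713 and 789 CPM in Rap1-depleted cells, against 742, 684 and 756 CPM in controls (0.01 ± 0.08), and *NOP1* 419, 474 and 466 CPM against 455, 454 and 480 CPM (-0.03 ± 0.12). All 3 overlapped their controls. As a group, the H/ACA proteins had none of 4 called (median -0.04) and the C/D proteins 1 of 4 (*NOP58*; median -0.12; 0.01 under total library size). Elsewhere 5 of 7 UTP-A, 3 of 6 UTP-B, 2 of 3 Mpp10 complex, 10 of 16 other SSU and 40S, 4 of 6 60S scaffold, 3 of 6 helicase and 3 of 7 GTPase and other 60S genes fell.

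Several fixed examples sat close to the threshold. *UTP10* fell, with 757, 666 and 647 CPM in Rap1-depleted cells, against 999, 835 and 979 CPM in controls (-0.44 ± 0.12, adjusted p = 0.00859 by edgeR). *NUG1* fell, with 235, 277 and 247 CPM in Rap1-depleted cells, against 335, 316 and 346 CPM in controls (-0.39 ± 0.10, adjusted p = 0.00844 by edgeR). In these 2 genes the libraries did not overlap, and both calls were lost under total library size. *HAS1* (-0.39), *MAK5* (-0.29) and *RRP9* (-0.26) also fell, but each call was lost in at least 3 of the 6 fits with 1 library left out. *DBP10* (-0.21, adjusted p = 0.0699), *MPP10* (-0.23, adjusted p = 0.0773), *NOG1* (-0.22, adjusted p = 0.116) and *PWP2* (-0.26, adjusted p = 0.110) did not pass in the edgeR fit. With the replicate number as a block over all 21 libraries, these 4 passed in edgeR at adjusted p = 0.0276, 0.0265, 0.0205 and 0.0107 in the same order. Only same-numbered *RAP1-AID* libraries were taken as pairs, but the block ran over every strain. *NOP7* (-0.17) and *BMS1* (-0.18) did not pass in either fit.

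Co-depletion of Rap1 and Sth1 gave a pattern close to that of Sth1 depletion. Of the 59 genes, 29 rose (49.2%), compared with 32.2% of all protein-coding genes, and 12 fell (20.3%), compared with 37.5%. The median log2(FC) was 0.21, against -0.05 for all genes tested. Past a log2(FC) of 1 in size, 1 rose and 1 fell, compared with 7.07% and 5.73% of all genes. With total library size the split was 15 higher and 17 lower, compared with 21.2% and 47.6% of all genes.

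The highest value was that of *NOP10*, with 10.4, 9.30 and 9.04 CPM in co-depleted cells, against 4.54, 4.76 and 4.53 CPM in controls (1.05 ± 0.20, adjusted p = 0.000145 by edgeR); its low counts limit the precision. *NUG1* had 715, 555 and 693 CPM in co-depleted cells, against 383, 337 and 432 CPM in controls (0.77 ± 0.10, adjusted p = 2.57e-06 by edgeR). *RRP9* had 758, 642 and 733 CPM in co-depleted cells, against 426, 373 and 458 CPM in controls (0.76 ± 0.09, adjusted p = 4.97e-07 by edgeR). In each of these genes all co-depleted libraries were above all controls. By role, all 4 C/D genes (median 0.59) and all 4 H/ACA genes (median 0.53) rose, with 3 and 4 of them also called under total library size, and 6 of 7 GTPase and other 60S genes rose (median 0.45; 4 under total library size). The UTP-A, UTP-B and Mpp10 medians, 0.15, 0.17 and 0.18, turned to -0.06, -0.04 and -0.03 under total library size. Of 16 other SSU and 40S genes 5 rose and 5 fell (median -0.07). Of 6 60S helicases 1 rose and 3 fell (median -0.17), and of 6 60S scaffold genes 5 rose and 0 fell (median 0.25). *NOP1* had 1042, 737 and 872 CPM in co-depleted cells, against 625, 496 and 555 CPM in controls (0.66 ± 0.12), and *CBF5* 1192, 1142 and 1100 CPM against 842, 762 and 760 CPM (0.54 ± 0.08). Neither gene overlapped its controls.

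At the low end stood the same helicase as in Sth1 depletion and a gene from the Rap1 comparison. *DBP10* had 303, 310 and 289 CPM in co-depleted cells, against 772, 748 and 782 CPM in controls (-1.35 ± 0.09, adjusted p = 1.94e-10 by edgeR). *NSR1* had 935, 747 and 815 CPM in co-depleted cells, against 1707, 1426 and 1597 CPM in controls (-0.92 ± 0.12, adjusted p = 1.47e-06 by edgeR). *MAK5* had 268, 230 and 247 CPM in co-depleted cells, against 461, 390 and 457 CPM in controls (-0.81 ± 0.09, adjusted p = 2.13e-07 by edgeR). All 3 were separated from their controls. Next came *IMP3* (-0.77) and *TSR1*, which had 396, 336 and 379 CPM in co-depleted cells, against 628, 659 and 600 CPM in controls (-0.76 ± 0.09, adjusted p = 4.97e-07 by edgeR).

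**Figure D4:**
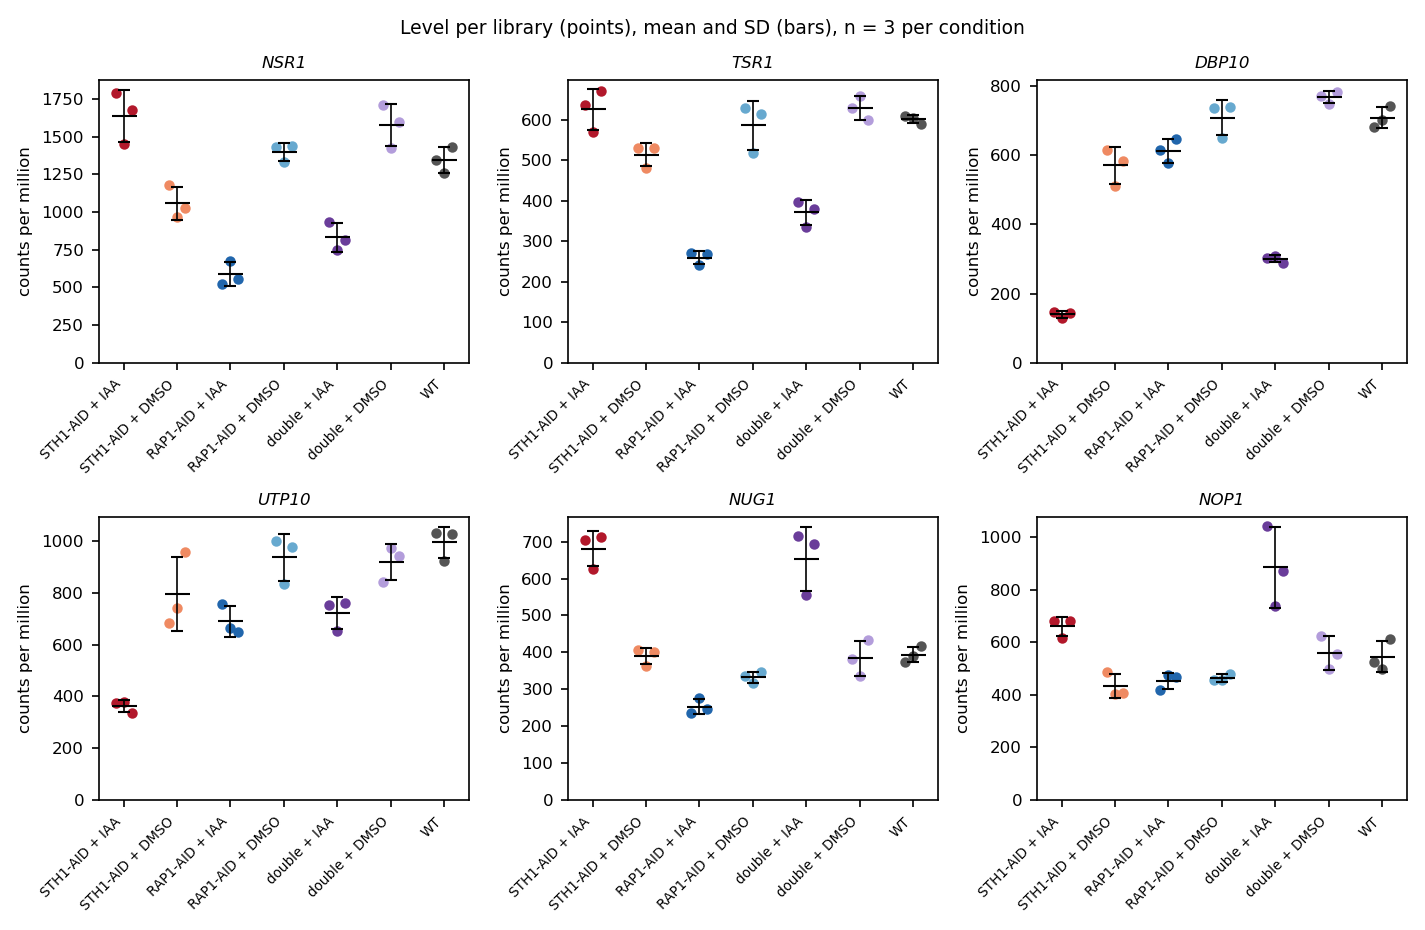
Level in CPM (y axis, from 0) of 6 genes in each library of the 7 conditions (x axis; double, *RAP1-AID*/*STH1-AID*). Points are libraries and bars the mean and SD of 3; *NSR1* and *TSR1* are low in both Rap1-depleted conditions (*NSR1* at 585 and 832 CPM on average), *DBP10* in both Sth1-depleted conditions (140 and 301 CPM), and *NUG1* and *NOP1* are highest where Sth1 was depleted, alone or with Rap1.

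Across the 3 depletions, 12 genes (20.3%) rose with Sth1 depletion and co-depletion and did not pass in Rap1 depletion, compared with 19.0% of all protein-coding genes, among them *NOP1*, *CBF5*, *MPP10*, *NOG1*, *NOP7* and *NOP10*. A further 10 (16.9%, compared with 2.26%) rose in those comparisons and fell with Rap1 depletion, among them *HAS1*, *NUG1*, *RRP9*, *UTP21* and *YTM1*. *IMP3*, *MAK5*, *SPB4* and *UTP10* fell in all 3 (6.78%, compared with 3.66%), and *DBP10*, *UTP4*, *UTP7* and *UTP23* fell with Sth1 depletion and co-depletion without passing in Rap1 depletion (6.78%, compared with 24.7%). *NSR1* and *TSR1* were the only genes of the set that rose with Sth1 depletion and fell in the other 2 comparisons (3.39%, compared with 1.31%). In 7 genes (11.9%, compared with 11.1%) none of the 3 depletions passed. These tallies use the fit without the replicate block. The block fits each replicate number over all 21 libraries, although the numbers were taken as pairs only in *RAP1-AID*. Its calls in the other strains rest on numbers not taken as pairs. With the block, the 12 became 9 (15.3%, compared with 18.2% of all genes), the 10 became 19 (32.2%, compared with 3.38%) and the 7 became 3 (5.08%, compared with 8.78%). *MPP10*, *NOG1* and *SPB1* were then among the 19, and so was *PWP2*, which passed in all 3 depletions (adjusted p = 0.00313, 0.0107 and 0.0191 by edgeR). Without the block, 22 of the 28 genes that rose with Sth1 depletion also rose with co-depletion (78.6%), compared with 74.0% over all genes, and 8 of the 11 that fell also fell (72.7%), compared with 75.8%.

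Sth1 depletion and co-depletion were measured in different strains and share no library. Across the 59 genes their log2 fold changes correlated with Pearson's r = 0.77 (Spearman's rho = 0.75), and 53 had the same sign; across all protein-coding genes r was 0.76. Rap1 depletion and co-depletion gave r = 0.42 (rho = 0.21) with 19 of 59 signs shared, and r = 0.32 across all protein-coding genes. Sth1 depletion and Rap1 depletion gave r = -0.08 (rho = -0.01) with 21 signs shared, and r = 0.07 across all protein-coding genes. The share of like signs over all genes is not given. Genes are not independent replicates, and these are descriptions.

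**Figure D5:**
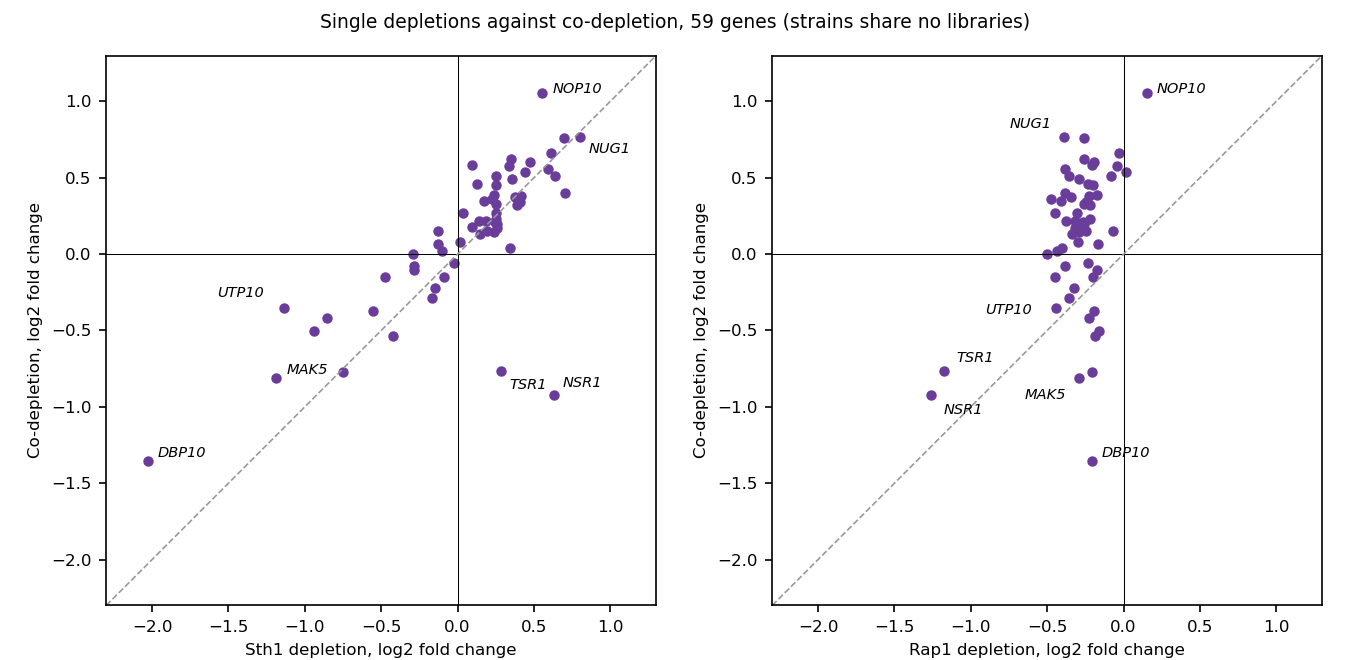
log2 fold change in co-depletion (y axis) against that in Sth1 depletion (left, x axis) and in Rap1 depletion (right, x axis) for the 59 genes, one point per gene, with the line of equal change dashed. On the left most points lie near the line (r = 0.77) except *NSR1* and *TSR1*; on the right *NSR1* and *TSR1* lie near the line and most other genes above it (r = 0.42).

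The differences between the depletions were tested directly, as contrasts of the IAA effects in 2 strains. The Rap1 effect minus the Sth1 effect was negative in 37 genes (62.7%) and positive in 8 (13.6%), compared with 31.4% and 37.6% of all genes. Its median was -0.47, against 0.06 for all genes tested. The extremes were *NSR1* at -1.89 ± 0.17 (adjusted p = 1.16e-08 by edgeR) and *DBP10* at 1.82 ± 0.12 (adjusted p = 2.04e-10 by edgeR). Under total library size the counts were 10 negative and 12 positive, compared with 16.9% and 50.3% of all genes. The larger share of negative differences was thus not seen under that scaling.

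The co-depletion effect differed from the Sth1 effect in few genes. It was more positive in 8 (13.6%) and more negative in 2 (3.39%), compared with 19.6% and 10.5% of all genes, with a median of 0.08, the same as the 0.08 of all genes. The 2 were *NSR1* at -1.55 ± 0.17 (adjusted p = 8.88e-07 by edgeR) and *TSR1* at -1.05 ± 0.13 (adjusted p = 3.93e-06 by edgeR). The 8 were genes that fell or did not pass with Sth1 depletion, led by *UTP10* at 0.79 ± 0.17 (adjusted p = 0.00135 by edgeR) and *DBP10* at 0.68 ± 0.12 (adjusted p = 0.000223 by edgeR). The other 6 were *UTP22*, *UTP7*, *SPB4*, *MAK5*, *NOC3* and *DBP9*. Of the 8, 4 were 60S helicases. The 8 became 5, 4 and 5 without *RAP1-AID*/*STH1-AID* + IAA replicate 1, *STH1-AID* + DMSO replicate 3 and *STH1-AID* + IAA replicate 2. Shares of all genes are not given for these fits.

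The co-depletion effect minus the Rap1 effect was positive in 41 genes (69.5%) and negative in 5 (8.47%), compared with 25.7% and 29.3% of all genes, with a median of 0.49, against -0.02 for all genes tested. The extremes were *NUG1* at 1.16 ± 0.15 (adjusted p = 3.72e-06 by edgeR) and *DBP10* at -1.14 ± 0.12 (adjusted p = 4.10e-07 by edgeR). For *NSR1* the difference, 0.34 ± 0.17, did not pass (adjusted p = 0.0921 by edgeR), and for *TSR1* it was 0.41 ± 0.13 (adjusted p = 0.00971 by edgeR). Under total library size, 13 were positive and 8 negative, compared with 11.7% and 45.1% of all genes.

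The degron strains were set against WT to show the background without auxin. In *STH1-AID* controls 23 genes were lower than in WT (39%) and 2 higher, compared with 19.4% and 18.5% of all genes, with a median of -0.20. *MAK5* was lowest at -0.50 ± 0.09, with 307, 279 and 312 CPM in *STH1-AID* controls, against 422, 392 and 458 CPM in WT. In *RAP1-AID* controls 12 were lower (20.3%) and 1 higher, compared with 22.1% and 22.7% (median -0.11), and *UTP6* was lowest at -0.61 ± 0.14, with 103, 111 and 124 CPM, against 183, 152 and 181 CPM in WT. In the double degron controls 3 were lower (5.08%) and 7 higher (11.9%), compared with 17.0% and 16.3% (median 0.01), the highest called being *NHP2* at 0.49. The *STH1-AID* controls, which serve as the baseline of Sth1 depletion, thus lay below WT, while Sth1-depleted cells had a median of -0.04 relative to WT. The 23 became 12, 14 and 12 without *STH1-AID* + DMSO replicate 2, WT replicate 1 and WT replicate 3. The 7 higher in the double degron controls became 2, 4 and 3 without WT replicate 1, *RAP1-AID*/*STH1-AID* + DMSO replicate 1 and its replicate 3. For the fits without 1 library, shares of all genes are not given. With total library size the counts were 8 lower and 5 higher for *STH1-AID*, 4 lower and 10 higher for *RAP1-AID*, and 0 lower and 19 higher for the double degron, compared with 11.0% and 26.7%, 11.0% and 36.0%, and 9.72% and 26.8% of all genes.

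Other lists of the ribosome pathway were set beside the 59 genes. Of all protein-coding genes, 35.9% rose and 40.9% fell with Sth1 depletion, 12.8% and 13.3% with Rap1 depletion, and 32.2% and 37.5% with co-depletion. In 95 further biogenesis factors, 32 rose and 39 fell with Sth1 depletion (median -0.02), 1 rose and 48 fell with Rap1 depletion (median -0.25), and 29 rose and 38 fell with co-depletion (median -0.02). With Sth1 depletion and co-depletion these 95 lay near the shares of all genes, so the larger share of rises in the 59 genes was not seen in them. For 137 cytosolic ribosomal protein genes, 17 rose and 26 fell with Sth1 depletion (median -0.13), 2 rose and 126 fell with Rap1 depletion (median -1.52), and 10 rose and 110 fell with co-depletion (median -0.72). Among 15 subunits and initiation factors of RNA polymerase I, the counts of genes that rose and fell were 6 and 5, 0 and 3, and 4 and 6 in the same order of depletions. Among 12 RNA polymerase III subunits they were 6 and 3, 0 and 2, and 6 and 3, and among 16 regulators of ribosome biogenesis genes 6 and 4, 1 and 1, and 7 and 2.

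The 56 genes with a PAC match and the 3 without one had median log2(FC) of 0.23 and 0.19 in Sth1 depletion, -0.27 and -0.24 in Rap1 depletion and 0.20 and 0.34 in co-depletion. Promoters with and without a Reb1 match had medians of 0.09 and 0.24 in Sth1 depletion, and those with and without an Abf1 match 0.24 and 0.19. *DBP10* and *UTP10*, which fell strongly with Sth1 depletion, and *NUG1* and *NOP1*, which rose, all had 1 or more PAC and 1 RRPE. Most genes of the set hold both cores, so this tells nothing about the responses.

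The upstream neighbours of the set were then listed. Of the 59 genes, 28 (47.5%) had a divergent upstream neighbour, against 51.9% of 5980 protein-coding genes, at a median distance of 353 bases. In Sth1 depletion, 10 of 27 divergent pairs with a coding neighbour had opposite signs (37.0%), compared with 28.3% over all genes. Of the 13 pairs in which both genes passed, 10 changed the same way and 3 opposite ways (23.1%, compared with 20.8% over all genes). The pairs described next were chosen after their values were seen. *DBP10* lies 304 bases from the divergent *SLM3*, encoding an enzyme of mitochondrial tRNA modification, and the pair had nearly equal values: -2.03 and -2.07 in Sth1 depletion, -0.21 and -0.10 in Rap1 depletion and -1.35 and -1.28 in co-depletion. *SPB4* and its divergent neighbour *DEG1*, a pseudouridine synthase gene 196 bases away, had -0.85 and -0.90 in Sth1 depletion and -0.42 and -0.55 in co-depletion. *MAK5* and the rRNA methyltransferase gene *BMT2*, 278 bases away, both fell in all 3 (-1.19 and -0.55 with Sth1 depletion). The 3 that changed opposite ways with Sth1 depletion were *UTP4* and *YCG1* (-0.42 and 0.58), *UTP8* and *SYF2* (0.35 and -0.23), and *BMS1* and *YPL216W* (-0.29 and 0.36).

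*TSR1* lies 820 bases from the divergent ribosomal protein gene *RPS29B*, which fell by 1.65 on the log2 scale with Rap1 depletion (adjusted p = 7.49e-06 by edgeR) beside -1.18 for *TSR1*; with co-depletion *RPS29B* had -0.41 (adjusted p = 0.0864 by edgeR) beside -0.76. *UTP6* faces *RPS18A* at 1020 bases (-0.50 and -1.45 in Rap1 depletion) and *RRP5* faces *RPS10B* at 1290 bases (-0.41 and -1.96). *NSR1*, by contrast, has a tandem neighbour, *RTS3*, 972 bases upstream, which rose in Rap1 depletion (0.80). Of 25 tandem pairs with a coding neighbour, 14 had opposite signs in Sth1 depletion (56.0%), compared with 49.0% over all genes. Both genes passed in 11 of them, 3 changing the same way and 8 opposite ways (72.7%, compared with 49.7% over all genes). Among the 8, *UTP10* (-1.14) lies 395 bases downstream of *PRM10* (1.99), and *NUG1* (0.80) 280 bases downstream of *YND1* (-2.12), which encodes a Golgi apyrase. *NOP10* (0.56) and *ERG7* (-1.10), *NOG2* (0.35) and *ESF2* (-1.50), and *RRP9* (0.69) and *CTF4* (-0.30) were also among them. Whether transcription from a neighbour has a part in these values was not tested. Nor was a part of the near match to the Rap1 consensus in the *TSR1* promoter.

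The median profile of the 59 genes over the 7 conditions was tracked most closely, among their own number, by *PWP2* (Pearson's r = 0.985), *UTP20* (0.974) and *NOP58* (0.973), while *DBP10* (-0.40), *IMP3* (-0.35), *SPB4* (-0.22) and *MAK5* (-0.20) ran against it. Outside the set, the 5 most alike protein-coding genes were *DBP7* (r = 0.984), a 60S helicase gene, *IDI1* (0.969), of sterol precursor synthesis, *FCY2* (0.968), a purine-cytosine permease gene, *HIP1* (0.966), the histidine permease gene, and *FTR1* (0.965), the iron permease gene. These correlations run over 7 condition means and describe likeness only.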

How the data were processed

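Nascent RNA bound to FLAG-tagged Rpb3 was sequenced from 21 libraries of 7 conditions, 3 biological replicates each. The authors trimmed reads with cutadapt 1.9.1, aligned them with STAR 2.5.2a and quantified genes with RSEM 1.3.0 on R64 genes (tools per the submitters' processing notes), and counting was strand-specific. The deposited table gives expected counts, which the authors did not scale between libraries, and the deposited TPM values, which RSEM scales by gene length and to a fixed sum per library. No column of unassigned samples was present, and no authors' comparison was used.

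Expected counts were rounded to whole numbers (7.82 to 9.25% of values per library were not whole) and tested with edgeR 4.0.16 (R 4.3.3): TMM scaling, filterByExpr by condition (6164 features and 5742 protein-coding genes kept), 1 coefficient per condition over all 21 libraries (14 residual degrees of freedom), glmQLFTest, and Benjamini-Hochberg over protein-coding genes. CPM are scaled by TMM library size, and SE is the fold change over the root of F. The test was checked on simulated counts. These were independent, with the same spread for all genes and as many rises as falls in 1 condition. The check therefore did not cover shifts in scaling or likeness of same-numbered libraries. Totals were 18289832 to 23182315 counts per library. Replicates of a group differed by more than sampling noise (mean chi-square per feature 27.3 to 117), so no library was counted as a repeat of another.

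Alternatives were DESeq2 1.42.0 size factors and Wald test, total library size, a replicate block, other filters, only the compared libraries, all features, an adjusted p of at most 0.01, members without overlapping genes (*NOG2* holds *SNR191* in an intron), and leaving out each library. Same-numbered libraries deviated together in the *RAP1-AID* strain (correlations 0.112 to 0.428, all above 0.1), so their numbers were taken to pair them. The main fit had no block and so left this pairing out. The alternative block fitted each replicate number over all 21 libraries, including strains whose numbers were not taken as pairs.

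Named genes were 1 fixed example per role group, the 3 highest and lowest per depletion, the extremes of each difference between strains, and the most alike profiles; other genes named were chosen after their values were seen. The 59 genes, the lists and the motifs were chosen with earlier results of these data known. Promoters were read by script from R64 (5987 windows of 300 bases).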

Additional observations from a re-analysis of the deposited data

Results flagged for a closer look

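The IAA effects were compared between strains by a contrast within the edgeR fit, and these differences were past the threshold. For the Rap1 effect minus the Sth1 effect, 37 of the 59 genes had a negative difference and 8 a positive one, compared with 31.4% and 37.6% of all genes, with *NSR1* at -1.89 and *DBP10* at 1.82. The split under total library size was 10 negative and 12 positive, compared with 16.9% and 50.3% of all genes. The larger share of negative differences was thus not seen under that scaling. For the co-depletion effect minus the Sth1 effect, 2 were negative (3.39%) and 8 positive (13.6%), both below the 10.5% and 19.6% of all genes, so these counts do not set the genes apart; *NSR1* was at -1.55 and *UTP10* at 0.79. For the co-depletion effect minus the Rap1 effect, 5 were negative and 41 positive, compared with 29.3% and 25.7% of all genes, with *DBP10* at -1.14 and *NUG1* at 1.16. The split under total library size was 8 negative and 13 positive, compared with 45.1% and 11.7% of all genes. The strains also differ in *MET17* RNA, which is near 0 in the *STH1-AID* libraries alone, and the part of that difference was not tested.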

How the results depend on the processing

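With total library size, Sth1 depletion had 8 genes higher and 20 lower with a median log2(FC) of -0.031 (*NOP7* -0.013), Rap1 depletion had 9 lower with a median of -0.14, and co-depletion had 15 higher with a median of -0.001. The controls against WT then had 5 higher and 8 lower (*STH1-AID*), 10 higher and 4 lower with a median of 0.074 (*RAP1-AID*), and 19 higher and 0 lower with a median of 0.145 (double degron). The Rap1 effect minus the Sth1 effect had 10 negative with a median of -0.092, and the co-depletion effect minus the Rap1 effect 13 positive and 8 negative with a median of 0.16. At an adjusted p of at most 0.01, Rap1 depletion had 13 lower, the *STH1-AID* control 0 higher and 11 lower, the *RAP1-AID* control 0 higher, the double degron control 2 higher and 0 lower, and the co-depletion effect minus the Sth1 effect 4 positive, which was 5 with only the compared libraries. The replicate block lost no call of the set. It gave 43 genes lower in Rap1 depletion (31 without it), compared with 16.4% of all genes. In the double degron control it gave 6 lower, compared with 19.7% of all genes. Outside *RAP1-AID*, replicate numbers were not taken as pairs (correlations of same-numbered libraries from 0.068 to 0.257 in *STH1-AID* and 0.015 to 0.375 in the double degron). The block still fitted them together, so its counts for those strains rest on numbers not taken as pairs. Leaving out 1 library gave 15 to 38 lower in Rap1 depletion, 0 to 2 higher and 12 to 26 lower in the *STH1-AID* control, 0 to 1 higher in the *RAP1-AID* control, 2 to 7 higher and 1 to 4 lower in the double degron control, and 4 to 8 positive in the co-depletion effect minus the Sth1 effect. Shares of all genes at the stricter threshold and without 1 library are not given. Those counts therefore do not show how the set stands against all genes. The cause of these changes was not tested. Values are relative, since no external standard was used, and *NOP10* has few counts.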
